A study of Homo sapiens with 8 samples.

Results

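Potassium channels are pore proteins that let potassium ions cross the membrane, mostly outward, and so set the resting potential, the shape of the action potential and the volume of a cell. The genes encoding them share the symbol prefix KCN. Alpha subunits form the pore, auxiliary subunits bind to them and alter their gating or traffic, and a group of silent alpha subunits forms no working channel alone and modifies the KCNB channels instead. Inward rectifiers and 2-pore channels carry most of the resting conductance of many cells, and several voltage-gated channels are known for roles in the cell cycle and in neuronal firing.

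The potassium channel genes were taken as the protein-coding genes whose GENCODE symbol starts with KCN, which gave 97 genes of the 19934 protein-coding genes and 60668 genes in the count files. Their RNA was measured in D283-OMO cells, which are D283 MED cells, an established medulloblastoma line, transduced with a lentivirus that encodes Flag-tagged OMOMYC under a doxycycline (DOX)-inducible promoter. OMOMYC is a dominant-negative miniprotein derived from the MYC transcription factor. The comparison is between 4 untreated libraries (OMO) and 4 libraries of cells given DOX for 72 h (OMO+DOX). Both groups carry the transgene, and no library of DOX-treated cells without it was among the 8, so responses to DOX and to OMOMYC cannot be told apart here. Whether the line is 1 clone is not given in the sources used here. Because each library holds RNA of many cells, fewer cells of a type and less RNA per cell cannot be told apart either.

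Total expected counts per library ran from 38390696 to 54020506, and 3 counts, taken as the floor of detection, corresponded to between 0.0581 and 0.0748 CPM, the reads of a gene per 1e6 counts of a library. Floors cover counting error only. MYC itself stood at 939 ± 75.6 CPM (SD, n = 4) in OMO and at 1123 ± 56.8 CPM (n = 4) in OMO+DOX, where reads of the transgene could be included. The photoreceptor-lineage genes that mark this kind of medulloblastoma, OTX2, CRX and NRL, were present in OMO at 1049, 126 and 28.7 CPM and were lower in OMO+DOX at 510, 21.0 and 2.44 CPM. The 5 neuronal markers summed to between 189 and 213 CPM in OMO and between 285 and 312 CPM in OMO+DOX, mostly SYT1. They did not move together. SYT1, TUBB3 and MAP2 (1.95 to 14.7 CPM) were higher in OMO+DOX, SNAP25 was lower (9.82 to 6.45 CPM) and RBFOX3 did not differ at an adjusted p below 0.05. Of 18 markers of astrocytes, oligodendrocytes, endothelium, immune cells, fibroblasts and muscle, 13 had group means under 1 CPM, among them all markers of astrocytes (summed at most 0.767 CPM in OMO and 0.438 CPM in OMO+DOX) and of immune cells (0.247 and 0.634 CPM), and MOG was at 0 throughout. The other 5 included CDH5 (0 and 1.85 CPM in OMO and OMO+DOX), KDR (0.348 and 2.74 CPM), COL1A1 (22.1 and 23.4 CPM) and DES (0.617 and 1.82 CPM), and their part in the channel results was not tested.

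A gene was tested if 4 or more of the 8 libraries exceeded 1 CPM for it. Of the 97 potassium channel genes, 50 passed this filter and 47 did not. Among the 47, 7 had no count in any library, 16 had at most 3 counts in every library, and none exceeded 1.09 CPM in any library. At an adjusted p below 0.05 (edgeR's quasi-likelihood test, Benjamini-Hochberg adjustment over 15222 genes), 19 of the 50 were higher and 25 were lower in OMO+DOX. Among all 15222 genes tested, 76.6% were called by this rule, 38.5% higher and 38.1% lower, so that the count of higher calls was near the share among all genes. The 4 values of each group did not overlap in 42 of the 50, 17 higher and 25 lower in OMO+DOX, beside 71.7% of all genes (36.3% higher and 35.4% lower).

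Genes were counted as differentially expressed (DE) when the adjusted p was below 0.001 and the log2 fold change (log2FC) was above 2 or below -2. By this rule 5 potassium channel genes were higher and 12 were lower in OMO+DOX, which is 34% of the 50 tested and 17.5% of the 97, beside 7.12% of all genes tested (4.38% higher and 2.75% lower) and 6.74% of the protein-coding genes tested (4.35% higher and 2.38% lower). Of the 17, 5 exceeded 1 CPM in all libraries of 1 group and in none of the other, KCNH5, KCNG4, KCNIP1 and KCNS2 among them, so that passing the filter fixed their direction. With the filter applied again, 3 were DE higher without any 1 of the OMO+DOX libraries, where such genes no longer reached 4 libraries, and DE lower ran from 8 to 11 with single libraries left out. Among the 37 channel genes above 1 CPM in all 8 libraries, 9 were DE (2 higher, 7 lower), or 24.3%, where the share among the 13675 genes of that kind was 3.50%. The median log2FC of the 50 was -0.29 and that of all genes 0.01, and the median absolute log2FC was 1.27 against 0.43. These shares describe the list, which was not tested as a set.

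**Figure D1:**
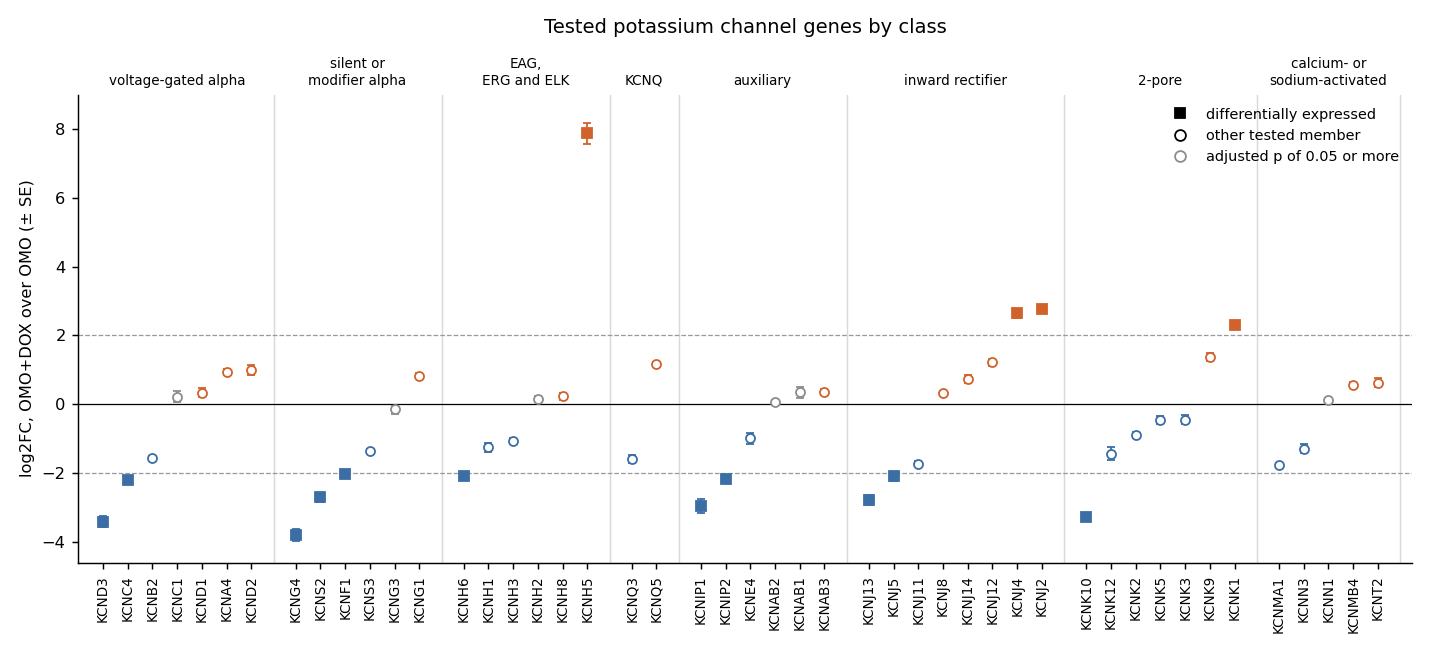
Log2FC of OMO+DOX over OMO (y axis, bars ± SE from the quasi-likelihood test) for 47 of the 50 tested potassium channel genes (x axis), grouped by class, with dashed lines at 2 and -2. Filled squares are 15 of the 17 DE genes, open circles the others, orange higher, blue lower and grey the 6 genes with an adjusted p of 0.05 or more. KCNH5 at 7.87 and KCNG4 at -3.80 are the ends of the range.

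The delayed rectifiers of the KCNB (Kv2) family, which repolarize neurons after an action potential, include KCNB2, whose RNA had the highest level per kb of all channel genes in the untreated cells and fell. KCNB2 was at 68.4, 68.4, 65.2 and 72.5 CPM in OMO and at 24.5, 24.7, 22.0 and 21.4 CPM in OMO+DOX, without overlap (log2FC -1.57, SE 0.06, adjusted p = 4.84e-10). Per kb of exon, KCNB2 had the highest level of all potassium channel genes in OMO at 19.2 CPM per kb, and it ranked 3 in OMO+DOX at 6.46 CPM per kb.

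KCNC (Kv3) channels open at strongly positive potentials and close fast, which serves rapid firing, and KCNC4 fell past the DE threshold. KCNC4 (chr1:110211343-110283100, plus strand, GRCh38) was at 39.5, 39.0, 29.7 and 39.7 CPM in OMO and at 8.40, 7.85, 7.82 and 8.23 CPM in OMO+DOX. OMO replicate 3 was apart from the other three and still above every OMO+DOX library (log2FC -2.19, SE 0.09, adjusted p = 1.35e-09). KCNC1 was not called, at 2.23 ± 0.459 and 2.61 ± 0.240 CPM (log2FC 0.22, adjusted p = 0.199). KCNC2 was not tested and was at or below 0.341 CPM in every library.

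KCND (Kv4) channels carry the fast transient A-type current, and their main member of the untreated cells, KCND3, had one of the largest falls. KCND3 (chr1:111770662-111989155, minus strand) was at 27.1, 20.3, 16.7 and 23.1 CPM in OMO and at 1.99, 2.39, 2.07 and 1.74 CPM in OMO+DOX. The OMO libraries varied more among themselves than the OMO+DOX libraries did, but none came near them (10.7-fold lower, log2FC -3.42, SE 0.16, adjusted p = 2.43e-09). KCND2, which passed only the looser rule, rose from 0.979, 1.55, 0.996 and 1.21 CPM to 2.23, 2.52, 2.48 and 2.31 CPM (log2FC 1.01, SE 0.15, adjusted p = 6.94e-05). KCND1, at 2.67 ± 0.347 and 3.36 ± 0.453 CPM, had overlapping groups and a log2FC of 0.34 whose call (adjusted p = 0.0316) was lost under 10 of 23 alternatives. The share of KCND3 in the summed Kv4 level per kb was thus 80.0 ± 3.84% in OMO and 20.5 ± 2.42% in OMO+DOX.

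The Kv4 channels are assembled with KCNIP proteins, calcium-binding auxiliary subunits that raise their surface level and slow their inactivation, and KCNIP2 fell. KCNIP2 (chr10:101825974-101843920, minus strand) was the most abundant auxiliary gene per kb in both groups. Its libraries were at 42.7, 39.97, 43.5 and 42.0 CPM in OMO and at 9.29, 9.49, 9.96 and 8.96 CPM in OMO+DOX. Replicates agreed closely within each group and the groups did not overlap (4.46-fold lower, log2FC -2.16, SE 0.05, adjusted p = 1.2e-11). KCNIP1 (chr5:170353487-170736632, plus strand) was at 1.204, 1.78, 1.34 and 1.39 CPM in OMO and at 0.197, 0.150, 0.176 and 0.198 CPM in OMO+DOX, the latter from 6 to 10 counts (log2FC -2.96, SE 0.20, adjusted p = 7.28e-08), and entered the test through OMO alone, which fixed its direction. KCNIP4, below the filter, went from between 0.441 and 0.597 CPM to between 0 and 0.0660 CPM, which is at least 6.78-fold lower against the floor. KCNIP3, not tested, was at 0.215 ± 0.0489 CPM in OMO and 0.494 ± 0.0994 CPM in OMO+DOX. Outside the KCN symbols, the 2 other Kv4 partners split, since DPP6 was lower (2.76 to 1.28 CPM, log2FC -1.10) and DPP10 higher (5.14 to 17.8 CPM, log2FC 1.79), both called at an adjusted p below 0.05.

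The remaining auxiliary genes that were tested moved less. KCNE4, whose product inhibits some voltage-gated channels, fell from 2.14 ± 0.253 to 1.08 ± 0.194 CPM (log2FC -0.99, adjusted p = 9.39e-05). Of the KCNAB genes, which encode beta subunits of the KCNA channels, KCNAB3 rose by a log2FC of 0.36 (adjusted p = 0.00299). KCNAB1 and KCNAB2 were not called, at log2FC 0.35 (adjusted p = 0.063) and 0.08 (adjusted p = 0.282). KCNE3, not tested, was at most 0.135 CPM in every OMO library and between 0.631 and 0.947 CPM in OMO+DOX. Of the KCNA family itself only KCNA4 passed the filter, at 6.99 ± 0.985 and 13.4 ± 0.820 CPM (log2FC 0.94, adjusted p = 2.97e-06).

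Silent alpha subunits join KCNB subunits in mixed channels, and of those above 1 CPM in all 8 libraries KCNF1 and KCNS3 fell and KCNG1 rose. KCNG4 and KCNS2 entered the test through OMO alone, so that their direction was fixed by the filter. KCNG4 (chr16:84218667-84239750, minus strand) was at 1.92, 2.40, 2.09 and 2.33 CPM in OMO and at 0.197, 0.174, 0.117 and 0.132 CPM in OMO+DOX, from 6 to 10 counts. It had the most negative log2FC of the 50 (-3.80, SE 0.18, adjusted p = 3.63e-09), a 13.9-fold lower mean. KCNS2 (chr8:98427022-98432848, plus strand) was at 3.41, 3.68, 3.60 and 3.85 CPM in OMO and at 0.651, 0.523, 0.450 and 0.594 CPM in OMO+DOX (log2FC -2.71, SE 0.13, adjusted p = 3.41e-09). KCNF1 (chr2:10911937-10914225, plus strand) was at 10.3, 10.95, 12.2 and 10.5 CPM in OMO and at 2.68, 2.39, 2.87 and 2.93 CPM in OMO+DOX. None of the 3 genes had overlapping groups, and KCNF1, at a log2FC of -2.01 (SE 0.09, adjusted p = 1.9e-09), lay just inside the fold threshold and, without OMO replicate 3 or OMO+DOX replicate 1 or 2, came to -1.97, -1.98 and -1.93. KCNS3, the most abundant silent subunit per kb in both groups, fell from 15.7 ± 0.618 to 6.13 ± 0.473 CPM (log2FC -1.36, adjusted p = 6.11e-09). KCNG1 rose, from 4.52 ± 0.149 to 7.97 ± 0.837 CPM (log2FC 0.82, adjusted p = 4.82e-06), and KCNG3 was not called, at 1.43 ± 0.171 and 1.30 ± 0.111 CPM (adjusted p = 0.348).

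**Figure D2:**
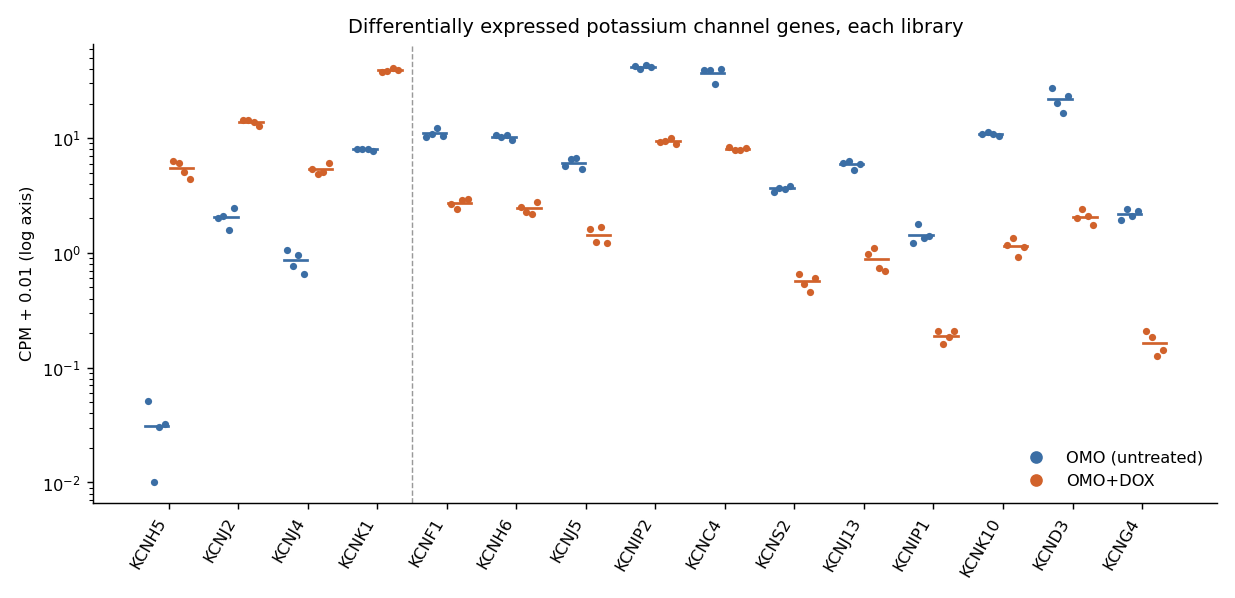
CPM plus 0.01 in each library (log y axis) for 15 of the 17 DE potassium channel genes (x axis), blue for the 4 OMO and orange for the 4 OMO+DOX libraries, with a line at each group mean. The 4 genes left of the dashed line were higher in OMO+DOX and the 11 right of it lower. In none of the 15 did the groups overlap, which their selection as DE made likely, beside 71.7% of all genes tested without overlap.

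The KCNH family holds the EAG, ERG and ELK channels, which share a cyclic nucleotide-binding-like domain, and it contained the largest rise of any potassium channel gene. KCNH5 (chr14:62699454-63102037, minus strand), which encodes EAG2, was at 0.0408, 0, 0.0203 and 0.0224 CPM in OMO, or 0 to 2 counts. In OMO+DOX it was at 6.31, 6.03, 5.02 and 4.36 CPM, from 198 to 320 counts. All OMO libraries were under the floor, so the change is given as a bound, at least 80.8-fold higher against 3 counts per library (fitted log2FC 7.87, which depends on the prior count, adjusted p = 5.23e-10). KCNH1, which encodes EAG1, the only other member of this subfamily, went the other way, from 46.9, 39.6, 28.2 and 42.6 CPM to 16.99, 17.3, 16.4 and 15.6 CPM (log2FC -1.25, SE 0.13, adjusted p = 3.05e-06). KCNH1 remained the more abundant of the pair per kb, with 79.4 ± 2.07% of their summed level in OMO+DOX and at least 99.9% in every OMO library. Its exons overlap a gene on the opposite strand, AC096636.1, by 3618 of 9812 bases, and AC096636.1 went from 5.12 to 1.57 CPM. KCNH1 also shares 1582 exon bases with AL590132.1 on the same strand, which was at 0.922 CPM in OMO and 0.166 CPM in OMO+DOX.

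Among the ERG genes, KCNH6 fell and KCNH2 was not called. KCNH6 (chr17:63523334-63548977, plus strand) was at 10.5, 10.3, 10.7 and 9.64 CPM in OMO and at 2.50, 2.27, 2.17 and 2.80 CPM in OMO+DOX (4.23-fold lower, log2FC -2.08, SE 0.09, adjusted p = 1.59e-09). KCNH2, which encodes the hERG channel of the heart's repolarizing current and was the most abundant KCNH gene per kb in both groups, was at 26.9, 24.2, 28.1 and 25.1 CPM and at 28.2, 23.7, 31.6 and 31.6 CPM. Its groups overlapped and it was not called (log2FC 0.14, SE 0.09, adjusted p = 0.157), although 3 alternatives called it. KCNH2 made up 64.3 ± 1.17% of the summed ERG level per kb in OMO and 89.2 ± 1.28% in OMO+DOX. In the ELK subfamily, KCNH3 fell from 9.60 ± 0.581 to 4.59 ± 0.595 CPM (log2FC -1.07, adjusted p = 1.05e-06). KCNH8 stood at 8.47 ± 1.13 and 9.95 ± 0.688 CPM with overlapping groups, and its call (log2FC 0.23, adjusted p = 0.0491) was lost under 14 of 23 alternatives.

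KCNQ (Kv7) channels carry the M-current, a slow current that restrains repetitive firing. All 3 tested members were called, none as DE, beside 76.6% called and 7.12% DE among all genes tested. KCNQ5 rose from 17.3, 17.8, 15.4 and 18.7 CPM to 39.1, 40.5, 38.0 and 37.4 CPM (2.24-fold, log2FC 1.16, SE 0.06, adjusted p = 7.38e-09). KCNQ3 fell from 19.7, 16.5, 13.4 and 18.3 CPM to 6.01, 5.76, 5.24 and 5.53 CPM (log2FC -1.59, SE 0.11, adjusted p = 1.05e-07). Neither pair of groups overlapped. Per kb, KCNQ5 was the highest of the family in OMO+DOX at 5.12 CPM per kb.

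Inward rectifiers (KCNJ) pass potassium more easily inward than outward and hold the membrane near the potassium equilibrium potential. All 8 tested members were called, 5 higher and 3 lower, and 4 of them were DE, beside 76.6% called and 7.12% DE among all genes tested. The classical strong inward rectifiers of the Kir2 subfamily moved together. KCNJ2 (chr17:70168673-70180048, plus strand), which encodes Kir2.1, was at 2.0, 2.09, 1.57 and 2.47 CPM in OMO and at 14.4, 14.4, 13.9 and 12.7 CPM in OMO+DOX. The groups were well apart (6.83-fold higher, log2FC 2.77, SE 0.11, adjusted p = 8.93e-10). KCNJ4 (chr22:38426327-38455199, minus strand), which encodes Kir2.3, was at 1.06, 0.755, 0.955 and 0.650 CPM in OMO and at 5.36, 4.91, 5.10 and 6.03 CPM in OMO+DOX (6.23-fold higher, log2FC 2.64, SE 0.14, adjusted p = 1.08e-08). KCNJ12 rose 2.32-fold (log2FC 1.22, adjusted p = 4.81e-07) and KCNJ14 1.67-fold (log2FC 0.74, adjusted p = 0.000146), so that every tested Kir2 gene was higher, without overlap between the groups. Their summed level went from 1.51 ± 0.0904 to 6.61 ± 0.248 CPM per kb. KCNJ12 has a near-identical copy, KCNJ18, which was listed at 0 in all OMO libraries and had 3.3 to 7.23 counts in OMO+DOX, so reads may be divided between them. KCNJ14 shares 350 of its 4340 exon bases with GRWD1 (66.3 and 72.3 CPM), and its counts were fractional in all 8 libraries.

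KCNJ13 and KCNJ5 fell. KCNJ13 (chr2:232766464-232776568, minus strand), the weak rectifier Kir7.1 of retinal pigment epithelium and choroid plexus, was at 6.12, 6.35, 5.29 and 5.92 CPM in OMO and at 0.970, 1.09, 0.724 and 0.693 CPM in OMO+DOX (log2FC -2.78, SE 0.14, adjusted p = 6.05e-09). It shares 722 of its 2977 exon bases with GIGYF2 on the opposite strand, which was at 137 and 145 CPM, and its counts were fractional in all 8 libraries. KCNJ5 (chr11:128891356-128921035, plus strand), a subunit of the G protein-gated channels, was at 5.72, 6.599, 6.77 and 5.38 CPM in OMO and at 1.60, 1.22, 1.68 and 1.21 CPM in OMO+DOX. Its groups did not overlap either (log2FC -2.09, SE 0.13, adjusted p = 4.32e-08). With library sizes not scaled by TMM, KCNJ5, KCNH6 and KCNF1 came to log2FC -1.96, -1.95 and -1.88 and no longer passed the fold threshold. KCNJ5 also came to -1.999 without OMO+DOX replicate 2 and to -1.99 without replicate 4, and KCNH6 to -1.9995 without replicate 3.

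The Kir6 subunits of the ATP-sensitive channel, which couples metabolism to membrane potential, went apart. KCNJ11, which encodes Kir6.2, fell from 18.9, 18.8, 20.2 and 19.5 CPM to 5.78, 4.81, 6.51 and 6.27 CPM (3.30-fold, log2FC -1.72, SE 0.08, adjusted p = 4.28e-09). KCNJ8, which encodes Kir6.1 and was the most abundant inward rectifier per kb in both groups, rose from 16.1, 16.9, 17.9 and 15.3 CPM to 19.2, 22.0, 21.0 and 21.5 CPM (log2FC 0.34, SE 0.06, adjusted p = 0.000426). The pair made up nearly equal parts of their summed level per kb in OMO, with KCNJ11 at 47.6 ± 1.51%, and KCNJ11 was at 17.8 ± 2.24% in OMO+DOX. ABCC8, the sulfonylurea receptor that completes the KCNJ11 channel, was lower as well, at 21.0 and 9.29 CPM (log2FC -1.17, called at an adjusted p below 0.05). ABCC9, the receptor usually paired with KCNJ8, had means of at most 0.0327 CPM.

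The 2-pore (KCNK) channels are leak channels, open at rest, and all 7 tested members were called, 2 higher and 5 lower, beside 76.6% called among all genes tested. KCNK1 (chr1:233614004-233672512, plus strand), which encodes TWIK-1, was at 8.02, 8.09, 8.03 and 7.73 CPM in OMO and at 37.6, 38.6, 40.5 and 39.4 CPM in OMO+DOX. Its replicates were tight and the groups far apart (4.90-fold higher, log2FC 2.29, SE 0.05, adjusted p = 3.52e-12). Per kb it ranked 17 among the 97 members in OMO at 2.20 CPM per kb and first in OMO+DOX at 10.8 CPM per kb. KCNK10 (chr14:88180103-88326907, minus strand), which encodes the mechanosensitive TREK-2, was at 10.96, 11.4, 10.8 and 10.4 CPM in OMO and at 1.16, 1.35, 0.919 and 1.12 CPM in OMO+DOX (9.62-fold lower, log2FC -3.27, SE 0.10, adjusted p = 1.06e-10). Its close relative KCNK2 (TREK-1) fell by less, from 4.56 ± 0.166 to 2.46 ± 0.255 CPM (log2FC -0.89, adjusted p = 4.73e-06). The acid-sensitive TASK genes split, since KCNK9 rose from 1.31 ± 0.0913 to 3.43 ± 0.346 CPM (log2FC 1.39, adjusted p = 4.01e-07) and KCNK3 fell from 1.37 ± 0.142 to 1.002 ± 0.0790 CPM (log2FC -0.44, adjusted p = 0.00767). KCNK12 and KCNK5 fell by log2FC -1.44 and -0.46.

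The calcium- and sodium-activated channels, which open when these ions enter the cell, held no DE member, with 2 higher and 2 lower of the 5 tested. Among all genes tested, 7.12% were DE, and 38.5% were called higher and 38.1% lower. KCNMA1, the pore of the large-conductance BK channel, fell from 76.9, 77.2, 71.2 and 77.4 CPM to 21.5, 24.5, 21.7 and 22.0 CPM (3.38-fold, log2FC -1.76, SE 0.06, adjusted p = 1.01e-10), the largest fall outside the fold threshold. KCNMB4, the neuronal beta subunit of the same channel, rose from 10.8, 9.29, 11.3 and 10.2 CPM to 15.7, 15.1, 15.3 and 15.7 CPM (log2FC 0.57, SE 0.07, adjusted p = 9.09e-06). LRRC38, a gamma subunit that also joins BK channels, fell from 66.6 to 20.5 CPM (log2FC -1.70, called at an adjusted p below 0.05). Of the small-conductance (SK) genes, KCNN3 was at 102, 74.1, 62.7 and 92.1 CPM in OMO and at 36.1, 34.7, 33.3 and 31.1 CPM in OMO+DOX. The OMO libraries of KCNN3 spread widely, from replicate 3 at the bottom to replicate 1 at the top, and all lay above OMO+DOX (log2FC -1.29, SE 0.13, adjusted p = 2.44e-06). KCNN1 was not called, at 12.6 ± 0.785 and 13.6 ± 0.552 CPM (adjusted p = 0.112), and took the place of KCNN3 as the most abundant member of the class per kb in OMO+DOX. This order rests on the union of exons as length, which is 35644 bases for KCNMA1. In CPM, not divided by length, KCNN3 and KCNMA1 both stayed above KCNN1 in OMO+DOX. The sodium-activated KCNT2 rose from 7.83 ± 1.53 to 12.1 ± 1.54 CPM (log2FC 0.63, adjusted p = 0.0012).

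**Figure D3:**
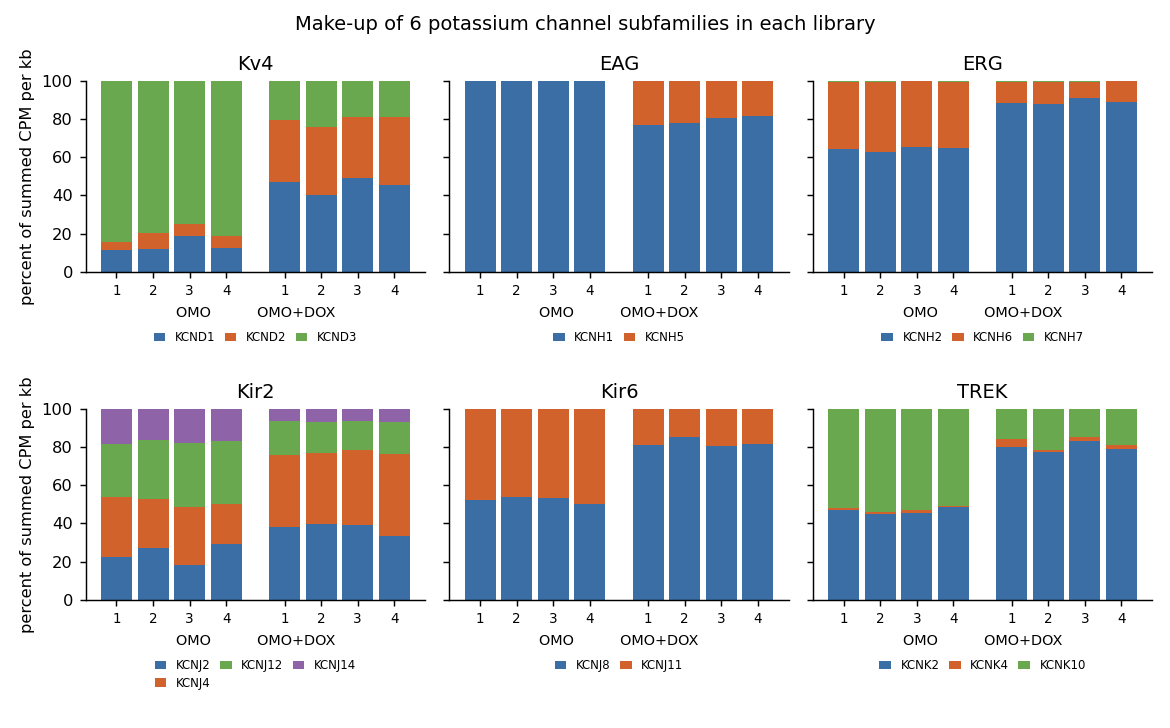
Percent of the summed CPM per kb of exon (y axis) that each gene contributed to 6 channel subfamilies in the 4 OMO and 4 OMO+DOX libraries (x axis, replicate numbers), 1 stacked bar per library. KCND3 made up 80.0% of Kv4 in OMO and 20.5% in OMO+DOX, and KCNK10 52.5% and 17.6% of TREK, where KCNK2 has the larger share in OMO+DOX although its own level fell too.

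Several genes named above are neither DE, nor the highest of their class, nor without a call, and were chosen after their values were seen. A share can be higher in OMO+DOX where the gene's own level is not, as for KCNK2 in TREK, whose sum was 2.51 ± 0.0466 CPM per kb in OMO and 0.786 ± 0.0773 in OMO+DOX. The subfamily shares are descriptions, computed from CPM per kb of the union of exons, and carry no test. In Kv4, EAG, ELK, Kv7, Kir6, TASK and the BK subunits, at least 1 gene was called higher and at least 1 lower at an adjusted p below 0.05, which for ELK rests on the unsteady call of KCNH8. In TREK and the KCNIP genes every called gene was lower, as was the single called gene of ERG and of SK, and in Kir2 every called gene was higher. Beside this, 38.5% of all genes tested were called higher and 38.1% lower, so a mix of directions within a subfamily is not particular to these genes.

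Summed over all 97 members, channel RNA stood at 119.7 ± 3.94 CPM per kb in OMO and at 87.2 ± 0.174 CPM per kb in OMO+DOX (SD, n = 4). The OMO sums of 124, 117, 116 and 122 CPM per kb all lay above the OMO+DOX sums, which were between 87.1 and 87.5 CPM per kb. The classes did not share this direction. The voltage-gated alpha genes of the KCNA to KCND families summed to 30.2 ± 2.20 CPM per kb in OMO and 12.6 ± 0.719 in OMO+DOX, the auxiliary genes to 16.9 ± 0.492 and 6.95 ± 0.283 and the silent alpha genes to 12.4 ± 0.385 and 5.50 ± 0.280. Lower in OMO+DOX were also the KCNH genes, at 14.7 ± 0.805 and 10.5 ± 0.484, and the calcium- or sodium-activated genes, at 14.8 ± 1.53 and 11.6 ± 0.232 CPM per kb. The 2-pore genes, at 7.05 ± 0.182 and 13.5 ± 0.223, and the KCNQ genes, at 6.36 ± 0.193 and 8.97 ± 0.153 CPM per kb, were the classes with the higher sum in OMO+DOX and no overlap. The inward rectifiers, at 17.3 ± 0.528 and 17.5 ± 0.356 CPM per kb, overlapped between the groups, their sum holding genes that rose and genes that fell. KCNB2 alone accounted for a large part of the voltage-gated sum in both groups and KCNK1 for most of the 2-pore sum in OMO+DOX. For a single value such as a sum, 4 against 4 libraries allow no exact two-sided permutation p below 0.0286.

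**Figure D4:**
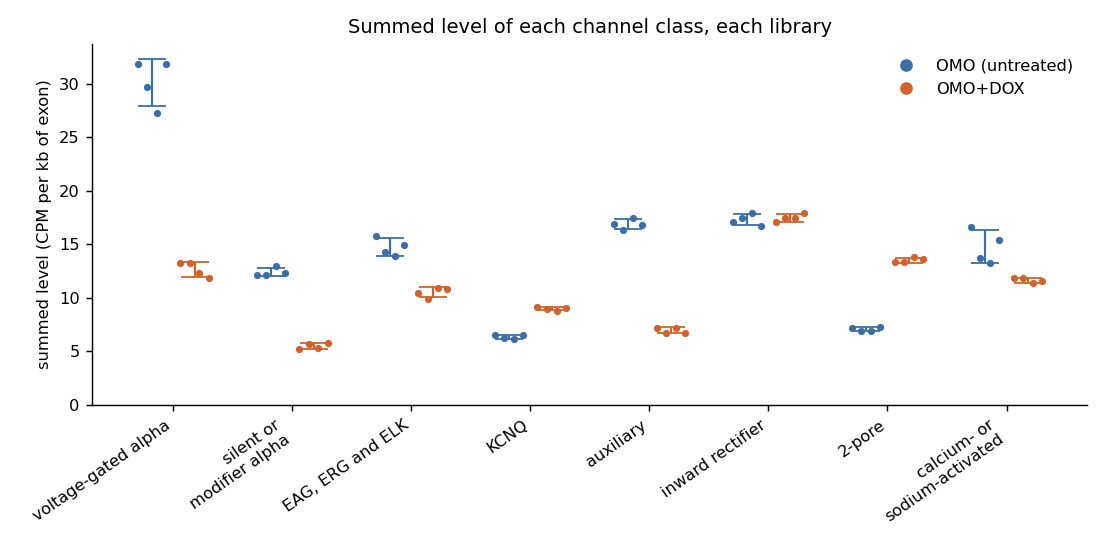
Summed level in CPM per kb of exon (y axis, from 0) of the 8 channel classes (x axis) in each of the 4 OMO (blue) and 4 OMO+DOX (orange) libraries, with bars for the mean ± SD. The means of the voltage-gated alpha class are 30.2 and 12.6, those of the 2-pore class 7.05 and 13.5 and those of the inward rectifiers 17.3 and 17.5.

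**Figure D5:**
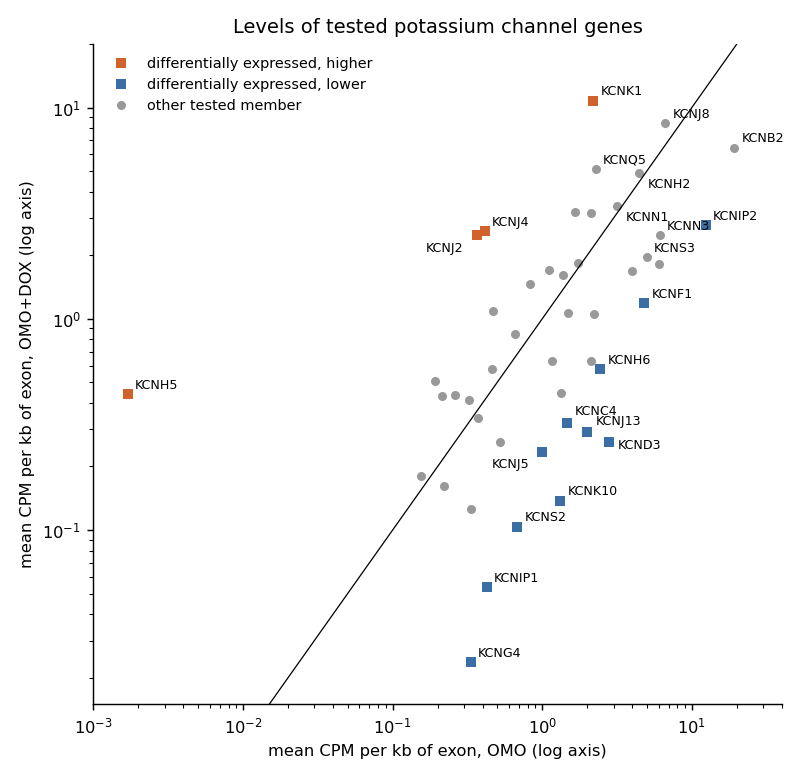
Mean level in CPM per kb of exon in OMO (log x axis) and in OMO+DOX (log y axis) of 47 of the 50 tested potassium channel genes, with the line of equal levels. DE genes are squares (orange higher, blue lower), other tested genes grey circles, and the DE genes drawn and the highest genes of the classes carry their names. KCNB2 and KCNIP2 lead the x axis, KCNK1 leads the y axis, and the OMO value of KCNH5 is under the floor.

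Genes that work with potassium channels were looked at as a second list, of which 36 of 51 were tested. At an adjusted p below 0.05, 14 were higher (38.9%) and 13 lower (36.1%), near the 38.5% and 38.1% of all genes tested, and 3 were DE higher and 2 DE lower, or 13.9% beside 7.12%. The 3 included ATP1B1, from 27.2 to 119 CPM (log2FC 2.13), and ATP1B2, from 37.9 to 545 CPM (log2FC 3.84), which encode beta subunits of the sodium-potassium pump, the builder of the potassium gradient that the channels use. Another beta subunit gene of the list, ATP1B3, fell (log2FC -0.43, called at an adjusted p below 0.05). The 2 DE lower genes, CNGB1 (8.59 to 2.08 CPM, log2FC -2.04) and CNGB3 (2.07 to 0.124 CPM, log2FC -4.05), encode beta subunits of the cyclic nucleotide-gated cation channels of photoreceptors. The median log2FC of the 36 was 0.02 and their median absolute log2FC 0.43, near those of all genes. REST, a repressor of many neuronal channel genes, rose from 65.4 to 82.1 CPM (log2FC 0.33, called at an adjusted p below 0.05).

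MYC binds DNA with MAX at E-boxes, of which CACGTG is the canonical form and CANNTG the loose one that includes it, and OMOMYC interferes with this pair. Promoter windows of 300 bases, from 250 before to 50 after the start, were taken from RefSeq on GRCh38.p14 and matched 72 of the 97 channel genes by symbol. Both motifs read the same on either strand. CACGTG lay in a window of 7 of the 72 (9.72%), KCNAB1, KCNAB2, KCND2, KCNE1, KCNH4, KCNK4 and KCNN4, where the share over all 27305 genes with a window was 8.77%. It was in a window of none of the 14 DE members with one, and of the called members KCND2 alone had it. CANNTG lay in a window of 53 of the 72 (73.6%), against 73.1% of all genes. A match describes letters only, and the lack of one draws nothing about binding outside the window.

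The 250 bases before a RefSeq start are shown for 4 members, KCND2 as the one called gene with CACGTG, KCND3 as its subfamily relative of opposite direction, and KCNH5 and KCNG4 as the ends of the log2FC range. Each is written 5′ to 3′ on the gene's strand of GRCh38.p14, with every CANNTG in capitals, and none of these bases lies in an exon of GENCODE 29. In KCND2 the capitals hold CACGTG, which begins 181 bases before the start, and a second, looser match.
KCND2 (chr7:120272925-120273174, plus strand): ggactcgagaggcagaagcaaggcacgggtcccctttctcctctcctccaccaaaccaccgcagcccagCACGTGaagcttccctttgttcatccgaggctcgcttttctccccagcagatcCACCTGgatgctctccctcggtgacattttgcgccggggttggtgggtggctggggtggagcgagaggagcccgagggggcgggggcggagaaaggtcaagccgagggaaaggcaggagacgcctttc
KCND3 (chr1:111989175-111989424, minus strand): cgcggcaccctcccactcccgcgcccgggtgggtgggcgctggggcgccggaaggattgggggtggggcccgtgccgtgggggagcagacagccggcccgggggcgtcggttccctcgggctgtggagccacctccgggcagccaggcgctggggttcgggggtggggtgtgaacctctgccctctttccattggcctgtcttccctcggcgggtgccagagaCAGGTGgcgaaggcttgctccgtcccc
KCNH5 (chr14:63045459-63045708, minus strand): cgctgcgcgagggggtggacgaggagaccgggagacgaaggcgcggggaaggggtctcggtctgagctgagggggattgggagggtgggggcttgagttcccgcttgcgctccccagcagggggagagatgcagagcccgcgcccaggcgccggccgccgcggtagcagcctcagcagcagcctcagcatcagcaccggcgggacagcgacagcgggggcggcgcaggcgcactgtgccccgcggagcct
KCNG4 (chr16:84240013-84240262, minus strand): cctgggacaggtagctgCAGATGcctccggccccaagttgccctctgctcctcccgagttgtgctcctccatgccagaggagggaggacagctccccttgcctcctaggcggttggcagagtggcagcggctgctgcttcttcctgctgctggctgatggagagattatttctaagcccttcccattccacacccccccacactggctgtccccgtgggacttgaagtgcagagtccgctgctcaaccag
The KCND3 and KCNG4 stretches hold 1 CANNTG each and that of KCNH5 holds none. The RefSeq start of KCNH5 lies 56579 bases inside the gene as GENCODE 29 gives it, so its stretch is upstream of an internal start only, whereas the starts of KCND2, KCND3 and KCNG4 lie 493, 19 and 262 bases before the GENCODE start. KCND3 has a second window (chr1:111989669-111989918), not shown here, which holds no CANNTG and has 149 bases in a GENCODE 29 exon. By base composition the KCND3 and KCNH5 stretches were 74.4% and 74.0% G and C, KCND2 63.6% and KCNG4 62.0%.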

How the data were processed

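PolyA+ RNA of 4 OMO and 4 OMO+DOX libraries was prepared with a stranded kit and read in pairs, and the sources describe the replicates as independent. The authors used Trim Galore on the reads and STAR for alignment to GRCh38, and deposited RSEM expected counts per gene, not normalized. Reads matching several genes are divided among them, and whether counting used strand is not given in the sources used here. Expected counts were rounded and genes over 1 CPM in 4 or more libraries tested with edgeR 4.0.16 in R 4.3.3 (TMM, quasi-likelihood test, no covariates, Benjamini-Hochberg over 15222 genes). SE is the absolute log2FC over the square root of F. CPM are TMM-scaled, and levels per kb use the union of GENCODE 29 exons. GENCODE 29, which is not the authors' release, held 96.5% of the gene identifiers and gave symbols and coordinates.

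Members, classes, partner genes and markers were chosen with earlier results of these data known. Genes named are the DE members, the highest per kb of each class in each group and the members without a call, and a few genes under this rule, though counted, are not reported here. The paper's text states the CPM filter also as more than 4 libraries, which was an alternative, as were DESeq2 1.42.0, other scalings and filters, an FDR of 0.01, a replicate block and each library left out. Whether replicate numbers pair the libraries is not given in the sources used here, and the main fit treated the libraries as unpaired. On simulated data for this comparison (15222 genes), the fit found 100 of 100 genes given a log2FC of 3 and made 0 false DE calls. At an adjusted p below 0.05 it called 100 of 100 genes given a log2FC of 1 and made 6 false calls. Every simulated gene had the same dispersion and far fewer genes were changed than were called here, so the simulation does not give the error rate of the real data. Tables were made with Python 3.11.15 and pandas 2.3.3.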

Additional observations from a re-analysis of the deposited data

Results flagged for a closer look

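In 57 groups of 4 libraries examined for the named channel genes, 2 held a library far from the other three, where chance would give about 1 in 20, or 2.85. In both, OMO replicate 3 was low. KCNC4 was at 29.7 CPM there and between 39.0 and 39.7 CPM in the other OMO libraries. KCNC1 was at 1.54 CPM there and between 2.42 and 2.51 CPM in the others. OMO replicate 3 held the lowest OMO value for 20 of the 50 tested channel genes (40%) and the highest for 18 (36%), beside 38.0% and 39.7% of all genes tested. Without it, the log2FC of KCNC4 was -2.30 and that of KCNC1 0.06, the latter still not called, and KCND3 and KCNN3, whose OMO values also spread widely, came to log2FC -3.54 and -1.42. The part of this library in the results was not tested beyond these values.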

How the results depend on the processing

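Over the alternatives, the channel genes called higher numbered between 15 and 24 and lower between 21 and 31. DE channel genes were 3 to 7 higher and 8 to 14 lower. Where the filter asked for over 4 libraries above 1 CPM, 3 were DE higher and 8 lower, since genes including KCNH5, KCNG4, KCNIP1 and KCNS2 then left the test and KCNF1 came to a log2FC of -1.999. With single libraries left out, DE higher ran from 3 to 5, being 3 without each OMO+DOX replicate when the filter was applied again and 5 when genes were kept as with all 8 libraries, and DE lower ran from 8 to 12. With no filter they were 7 and 14, with KCNE3 and KCNJ18 added as higher and KCNC2 and KCNIP4 as lower. With library size only, the median of all genes shifted by 0.13, and 5 and 9 were DE. Leaving out members that share exon bases with a gene above 1 CPM, an alternative chosen after seeing the data, gave 5 and 10. DE partner genes were 7 higher with no filter, and DE lower 1 with library size only or the stricter filter, 4 with no filter, and 1 to 2 with single libraries left out. CANNTG in place of CACGTG gave 53 members in place of 7.

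Of 1125 log2FC of single members under alternatives, 1088 kept direction and side of an adjusted p of 0.05, 24 lost that call (KCNH8 and KCND1), 13 gained it (KCNAB1, KCNAB2, KCNH2, KCNN1) and 0 reversed. The fold threshold of DE is stricter, and KCNF1, KCNH6 and KCNJ5 came under it in some alternatives. The replicate number as a block gave 20 higher and 25 lower channel genes and the same 5 and 12 DE counts. Pairs with the same number had a mean correlation of deviations of 0.0913 (-0.176 to 0.241), beside -0.033 for pairs with different numbers. Of the 8 libraries, 2 correlated best with their own number. These values do not settle whether the libraries were paired, and the block is only an alternative. Depth limits the 16 members with at most 3 counts everywhere, for which a change was not detectable.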
